A study of Oryza sativa with 4 samples.

Results

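Photosynthesis transcripts were examined in coleoptiles of rice (Oryza sativa) variety PB1, wild type. The set is a fixed list of 39 nuclear loci of the MSU rice annotation, matched by ID with no threshold on a measured value, although the list itself was drawn up with earlier results of these data known. It holds 5 loci of the Rubisco small subunit, 1 of Rubisco activase, 12 of light-harvesting proteins, 17 of photosystem and electron transport subunits and 4 of Calvin cycle enzymes. Of the 39 loci, 9 had a row in the tables, with 10 transcripts among the 3439 listed, and 30 were not listed.

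The coleoptile is the sheath around the first leaf of a grass seedling. Seeds spent 7 days under sterile water. Seedlings with an elongated coleoptile were then placed on cotton wetted with growth medium in air, where the sheath begins to senesce. The 2 control libraries came from seedlings at 7 days after germination, harvested upon transfer to air, and the 2 day 2 libraries from seedlings at 9 days after germination, after 2 days in air. The labels give submergence as the treatment of all 4 libraries. Age, air, growth medium and senescence changed together between the groups and cannot be told apart.

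Photosynthesis takes place in chloroplasts. Light-harvesting proteins bind chlorophyll a and b and pass the absorbed energy to photosystems I and II, which drive electron transport in the thylakoid membrane. The Calvin cycle then fixes carbon dioxide through Rubisco, an enzyme built of large subunits encoded in the chloroplast and small subunits encoded in the nucleus, and Rubisco activase keeps that enzyme free of inhibiting sugar phosphates. In leaves, loss of photosynthetic proteins and of chlorophyll is a hallmark of senescence.

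Each group has 1 value per transcript, the authors' FPKM (mapped fragments relative to transcript length in kilobases and to library size) over its 2 libraries. No FPKM difference below therefore has a replicate check or a p-value in these tables, and whether the libraries of the groups overlapped cannot be said. The tables hold transcripts that had already been selected for change, since the smallest absolute log2 ratio among the 3166 transcripts above 0 in both groups was 2.00. A locus without a row may have changed by less than 4-fold, may have failed the study's test, may have been detected in control alone or may not have been detected, and these cases cannot be told apart. A complete loss at day 2 would not show, since 0 of the 3439 listed transcripts are at 0 at day 2 while 273 are at 0 in control. The depth behind a value is unknown, and in bulk tissue fewer cells of a type and less RNA per cell cannot be told apart either. None of 5 seed storage protein loci, looked up as a sign of endosperm tissue, was listed. This cannot show that such tissue was absent, because transcripts at a similar level in both groups have no row.

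Among the 9 listed photosynthesis loci, 8 had a higher FPKM at day 2 and 1 had a lower one. The FPKM of all transcripts of a locus were added, and a call required FPKM 1 or more in 1 of the groups together with a log2 ratio of day 2 to control of 2 or more in either direction. Of all 3339 items of the tables (loci, and single transcripts without an ID), 56.8% were higher and 34.4% were lower by the same rule, 91.2% in all. A further 7.73% had a control value of 0 and reached FPKM 1 at day 2, so they had no ratio and were not called, and with these 64.5% were higher. None of the 9 photosynthesis loci was at 0 in either group. Among the 870 items whose control FPKM lay between those of the lowest and the highest listed photosynthesis locus (6.35 to 89.3), 28.2% were higher and 71.8% were lower. A window on control values leaves out many higher items, whose median control FPKM was 1.04. These shares are therefore no neutral background for the 8 higher loci. The median log2 ratio was 2.56 over the 9 photosynthesis loci and 2.35 over the 3045 called items. The 8 higher photosynthesis loci had a median log2 ratio of 2.68, below the 3.14 of all 1895 higher items, while their median control FPKM was 23.2 against 1.04 and their median day 2 FPKM was 135 against 11.5. They were thus more abundant in both groups than the typical higher item. By the median they also differed by a smaller factor, although LOC_Os12g19381 had a log2 ratio of 4.58, above 3.14. The 9 loci together reached FPKM 256 in control and 1583 at day 2, which is 6.18-fold higher.

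**Figure D1:**
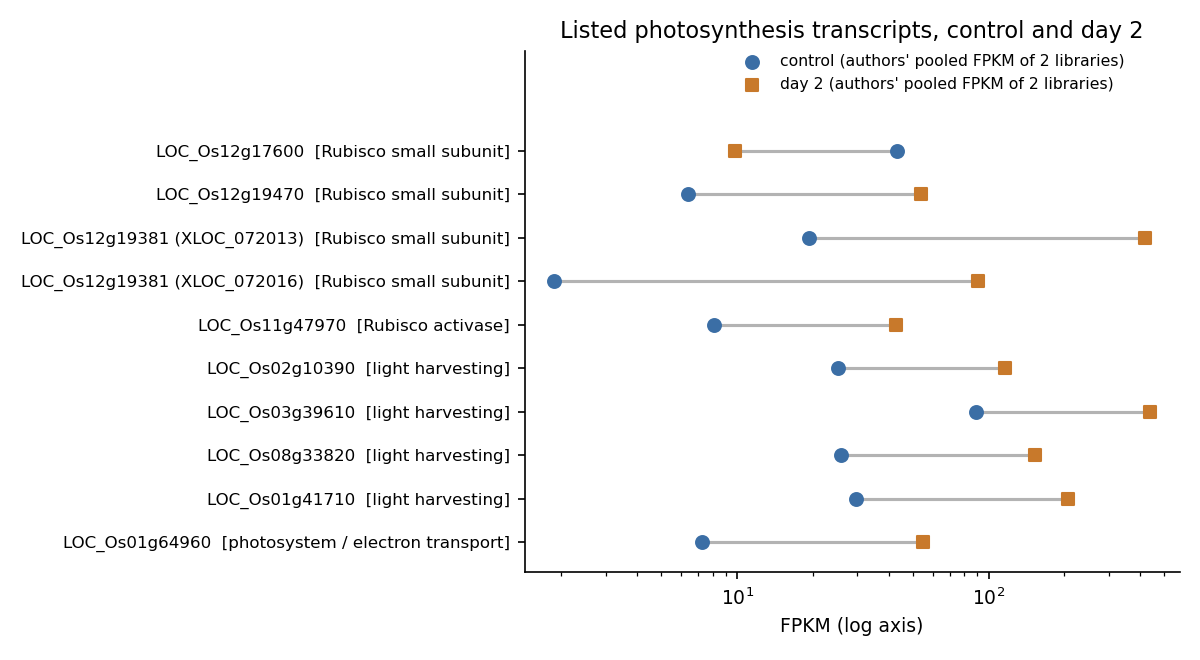
FPKM of the 10 listed photosynthesis transcripts on a log axis, with circles for control and squares for day 2, each the authors' pooled value of 2 libraries, and no error bar because there is 1 value per group. LOC_Os12g17600 is the only transcript shown whose day 2 value (9.82) lies left of its control value (43.1), and LOC_Os03g39610 has the highest day 2 value (438).

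The number of calls changed with a common factor between the groups. The summed FPKM of all listed transcripts was 1.86 times higher in control than at day 2. Multiplying day 2 by this ratio equalises the sums and dividing by it moves them further apart, and since the tables hold only changed transcripts, neither is known to be a correction. Either one shifts every log2 ratio by 0.90, so which calls were lost is fixed by the distance of a ratio from the threshold. With division, 3 of the 9 photosynthesis loci were higher and 1 was lower, beside 31.3% higher and 34.4% lower among all 3339 items. The 3 were the Rubisco small subunit loci LOC_Os12g19381 and LOC_Os12g19470 and the photosystem locus LOC_Os01g64960. With multiplication, 8 were higher and none was lower, beside 57.2% and 16.1% of all items. No sign changed in either case.

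The Rubisco small subunits went in both directions. By the study's IDs, 2 of the 5 loci were higher, 1 was lower and 2 (LOC_Os12g19394 and LOC_Os02g05830) were not listed. Among all items, 56.8% were higher and 34.4% were lower. The 3 listed loci all lie on chromosome 12. LOC_Os12g17600 (chromosome 12, 10080504 to 10081588 on IRGSP-1.0, the Nipponbare reference) had FPKM 43.1 in control and 9.82 at day 2. This is 4.39-fold lower, with a log2 ratio of -2.13, close to the threshold of 4-fold at which transcripts enter the tables. With day 2 multiplied by the ratio of sums, its log2 ratio was -1.24 and it was no longer counted as lower. Among the lower items of the tables, 89.6% had a more negative log2 ratio. It was the second most abundant of the 9 loci in control and the least abundant at day 2.

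The study also measured LOC_Os12g17600 by quantitative PCR. Its primers are shown because it was the 1 locus among the 9 listed that was lower. The forward and reverse primers, in lower case throughout and written from 5′ to 3′, were as follows.
LOC_Os12g17600 forward: agtacctgctccgttccaagt
LOC_Os12g17600 reverse: tccagtacctgccatcgtagt
Both primers are 21 bases long. Whether they also match the other small subunit loci was not tested, since no genome of the files' build was used here.

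The remaining small subunit transcripts were higher at day 2. LOC_Os12g19381, which the study's table pairs with the RefSeq gene RBCS1, had 2 transcripts from separate gene models that lie 13610 bases apart. The first (chromosome 12, 11262346 to 11263636) had FPKM 19.4 in control and 417 at day 2, a 21.5-fold difference with a log2 ratio of 4.43. The second (chromosome 12, 11277246 to 11278306) had FPKM 1.87 in control and 90.4 at day 2, a 48.2-fold difference with a log2 ratio of 5.59. Together they gave FPKM 21.3 and 508, a log2 ratio of 4.58, the largest of the 9 loci, which 18.5% of the higher items exceeded. At day 2 LOC_Os12g19381 ranked 49th by FPKM among the 3339 items, and in control it ranked 781st. Both models carry this ID in the study's table, and they were summed for that reason only. Whether the second model is a different small subunit gene, such as the unlisted LOC_Os12g19394, was not tested. The summed values and ranks of LOC_Os12g19381 therefore depend on the study's ID. LOC_Os12g19470 (chromosome 12, 11320347 to 11322505), a further small subunit locus 42041 bases from the second model, had FPKM 6.35 in control and 53.8 at day 2, an 8.48-fold difference with a log2 ratio of 3.08.

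The composition of the listed small subunit transcripts therefore differed between the groups. Some shift of shares was fixed in advance, since each listed transcript had passed the 4-fold selection and the loci went in both directions. Only the size of the shift is described here. LOC_Os12g17600 made up 61.0% of the summed small subunit FPKM in control and 1.72% at day 2. LOC_Os12g19381 made up 30.1% in control and 88.9% at day 2, of which the first gene model gave 73.0% and the second 15.8%. LOC_Os12g19470 had nearly the same share in both groups, 8.98% and 9.41%. These shares are within a group and do not depend on the scaling between groups. They refer to listed loci only, so the unlisted small subunit loci could hold any further amount. The class sum was FPKM 70.7 in control and 571.5 at day 2, an 8.08-fold difference, and it rested on LOC_Os12g19381. Without that locus, with both of its gene models left out, the sums were 49.5 and 63.6, a 1.29-fold difference. Without LOC_Os12g17600 the sums were 27.6 and 562, a 20.4-fold difference. Small subunit genes are similar in sequence and can share reads, and how the authors' counting divided such reads among these loci, including the 2 gene models under 1 ID, was not tested.

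**Figure D2:**
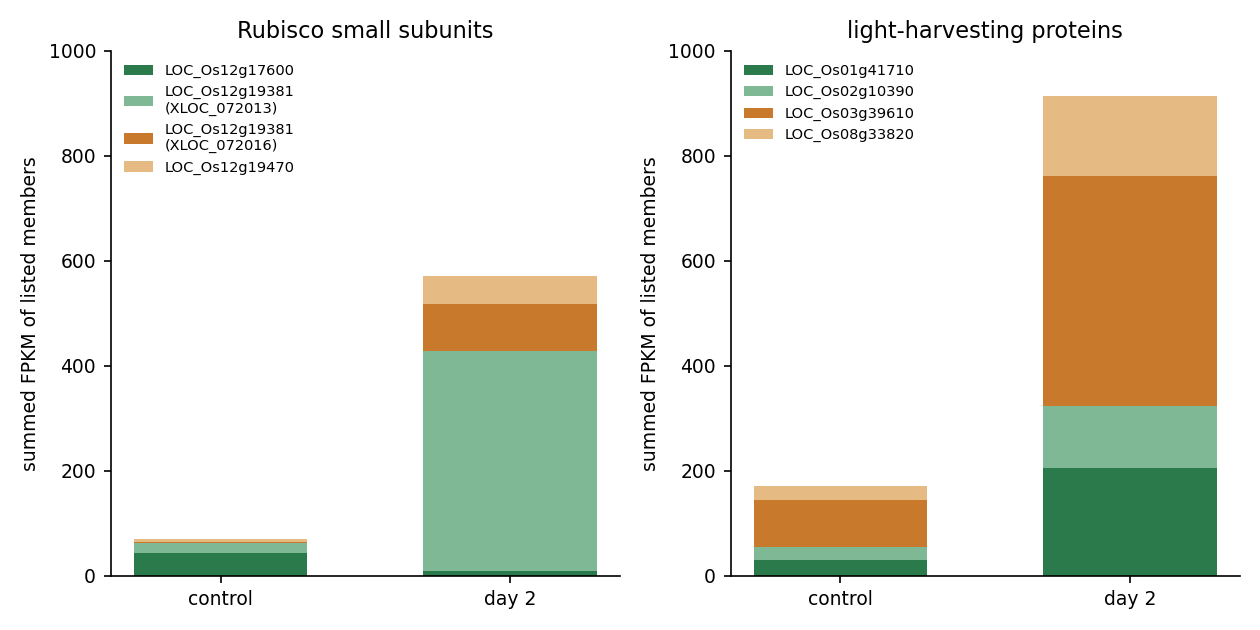
Summed FPKM of the listed Rubisco small subunit transcripts (left) and light-harvesting transcripts (right) in control and at day 2, as stacked bars from 0 with 1 colour per transcript and no error bar because there is 1 value per group. The small subunit bar stands at 70.7 in control and 571.5 at day 2, with LOC_Os12g17600 as 61.0% and 1.72% of it, and in the light-harvesting bar LOC_Os03g39610 keeps the largest part, with 52.5% and 48.0%.

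Rubisco activase differed in the same direction as most small subunit transcripts. LOC_Os11g47970 (chromosome 11, 28932976 to 28936031), described by the study as a protein of the AAA-type ATPase family and listed in RefSeq under the synonym rca, had FPKM 8.07 in control and 42.9 at day 2. This is a 5.31-fold difference with a log2 ratio of 2.41. With day 2 divided by the ratio of sums the log2 ratio was 1.51, under the threshold. Of the higher items of the tables, 77.8% had a larger log2 ratio.

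Of the 12 light-harvesting loci, 4 were listed and 8 were not listed. All 4 were higher at day 2, beside 56.8% of all items of the tables. The study annotates the 4 as chlorophyll a/b binding proteins, the antenna proteins of the photosystems. LOC_Os03g39610 (chromosome 3, 22000042 to 22001240), with the RefSeq synonyms LHCP and RCABP89, was the most abundant of all 9 photosynthesis loci in control, with FPKM 89.3, and had FPKM 438 at day 2, a log2 ratio of 2.30. LOC_Os01g41710 (chromosome 1, 23607362 to 23608541) had FPKM 29.6 in control and 206 at day 2, a log2 ratio of 2.80, the largest of the 4. LOC_Os08g33820 (chromosome 8, 21171277 to 21172654) had FPKM 25.9 in control and 153 at day 2, a log2 ratio of 2.56.

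LOC_Os02g10390 (chromosome 2, 5468647 to 5470490) had the smallest log2 ratio of the 4 light-harvesting loci, 2.21, with FPKM 25.2 in control and 117 at day 2. The 4 loci thus spanned 4.63-fold to 6.95-fold, while the log2 ratios of the small subunits ran from -2.13 to 4.58. The lower end of the range is set by the 4-fold selection of the tables, and the 8 unlisted loci have no value, so the range does not describe the class. LOC_Os03g39610 gave 52.5% of the summed FPKM of the class in control and 48.0% at day 2, and LOC_Os01g41710 gave 17.4% and 22.5%. The class sum was 170.0 in control and 914 at day 2, a 5.38-fold difference. With day 2 divided by the ratio of sums, all 4 log2 ratios were under the threshold of 2, at 1.31 to 1.90, which follows from their size and the shift alone, and with day 2 multiplied by it they were at 3.11 to 3.69.

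Among the 17 photosystem and electron transport loci, 1 was listed. LOC_Os01g64960 (chromosome 1, 37697023 to 37699582) stands among the photosystem subunits of the list and is annotated by the study as a chlorophyll a/b binding protein. It had FPKM 7.23 in control and 54.7 at day 2, a 7.56-fold difference with a log2 ratio of 2.92, and it kept a log2 ratio of 2.02 with day 2 divided by the ratio of sums. The other 16 loci of this class had no row. None of the 4 Calvin cycle enzyme loci was listed either. For these 20 loci the tables give neither a level nor a direction.

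**Figure D3:**
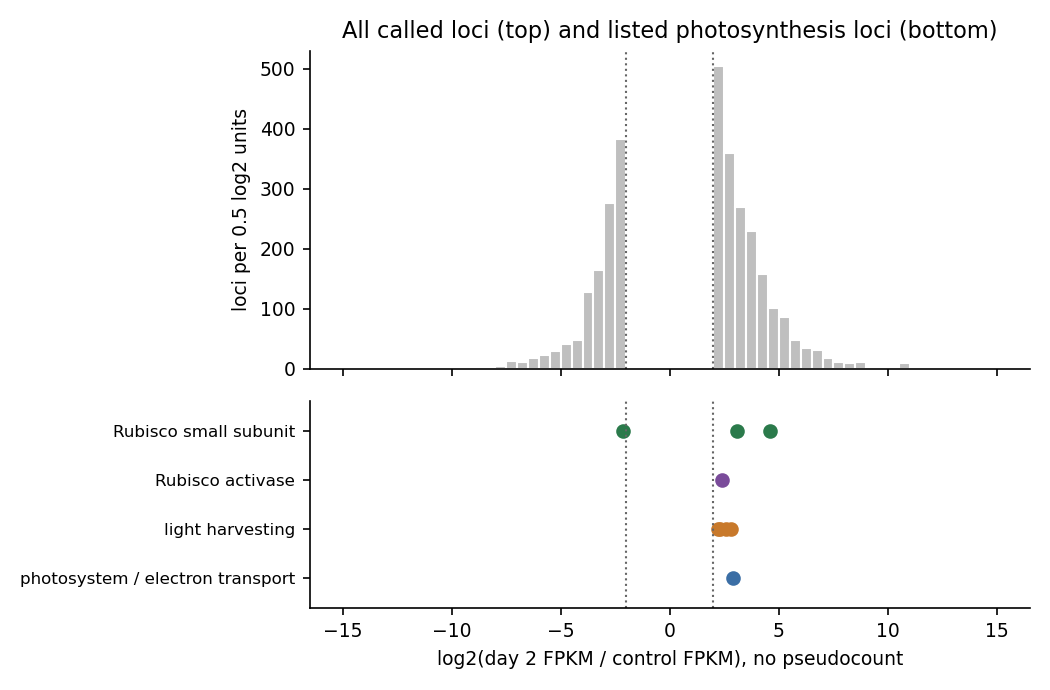
The upper panel counts the 3045 called items by log2 ratio of day 2 to control in bins of 0.5, and the lower panel shows each of the 9 listed photosynthesis loci as a point by class, with dotted lines at -2 and 2. The gap between the lines reflects the selection of transcripts for the tables, and 8 of the 9 points lie to the right of it, between 2.21 and 4.58, with 1 to the left at -2.13.

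By abundance, none of the 9 loci reached FPKM 100 in control and 5 did so at day 2. The order at day 2 was LOC_Os12g19381, LOC_Os03g39610, LOC_Os01g41710, LOC_Os08g33820 and LOC_Os02g10390, from FPKM 508 to 117, followed by LOC_Os01g64960, LOC_Os12g19470 and LOC_Os11g47970 between 54.7 and 42.9 and by LOC_Os12g17600 at 9.82. In control the order was led by LOC_Os03g39610 and LOC_Os12g17600. The first place at day 2 rests on adding the 2 gene models of LOC_Os12g19381. The larger model alone had FPKM 417, below the 438 of LOC_Os03g39610. Without replicate values, neighbours in these orders cannot be separated.

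Related plastid pathways were looked up by locus lists drawn up from general knowledge of rice, and names are given only where the study annotates the ID. Chlorophyll synthesis supplies the pigment that light-harvesting proteins bind. Of 13 loci, 2 were listed and both were higher, beside 56.8% of all items of the tables. The locus annotated as protochlorophyllide reductase A, LOC_Os04g58200, an enzyme of the light-dependent step of chlorophyll synthesis, had FPKM 18.4 in control and 95.5 at day 2, a log2 ratio of 2.38. The locus annotated as chlorophyllide a oxygenase, LOC_Os10g41760, of the family that makes chlorophyll b, had FPKM 0.898 in control and 7.84 at day 2, a log2 ratio of 3.13. With day 2 divided by the ratio of sums, LOC_Os04g58200 was under the threshold at 1.48 and LOC_Os10g41760 stayed above it at 2.23.

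Chlorophyll breakdown had 4 of 7 loci listed, all higher beside 56.8% of all items, with log2 ratios of 2.06 to 6.43. The stay-green locus LOC_Os09g36200, whose protein removes magnesium from chlorophyll a, had the largest of these, with FPKM 0.611 in control and 52.8 at day 2, an 86.4-fold difference. LOC_Os10g25040, annotated as red chlorophyll catabolite reductase, a later enzyme of the pathway, had FPKM 5.99 in control and 25.0 at day 2, a log2 ratio of 2.06. A further locus that the study names RCC reductase, LOC_Os10g25030, was not listed. LOC_Os06g24730, which the study annotates as a hydrolase of the alpha/beta fold family, had FPKM 7.97 in control and 39.4 at day 2. LOC_Os01g12710 had FPKM 1.62 in control and 31.6 at day 2, a log2 ratio of 4.29. With day 2 divided by the ratio of sums, LOC_Os06g24730 and LOC_Os10g25040 were under the threshold, at log2 ratios of 1.41 and 1.17. The stay-green locus and LOC_Os01g12710 stayed above it, at 5.54 and 3.39.

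Photorespiration, which recycles the product that Rubisco forms with oxygen, had 3 of 7 loci listed. Of these, 2 were higher and 1 was lower, beside 56.8% higher and 34.4% lower among all items. The lower locus, LOC_Os01g51410, is annotated as glycine dehydrogenase, a part of the glycine cleavage system of mitochondria. It had FPKM 95.8 in control and 17.01 at day 2, a 5.64-fold lower value with a log2 ratio of -2.49. LOC_Os02g01150, annotated by the study as an erythronate-4-phosphate dehydrogenase domain protein, had FPKM 3.02 in control and 36.1 at day 2, a log2 ratio of 3.58. LOC_Os04g53210, the other higher locus, had FPKM 2.90 in control and 58.8 at day 2, summed over its 2 transcripts. Its log2 ratio of 4.34 was the largest of the 3.

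A last list held 13 chloroplast or light related loci. All 13 were listed and higher, and 3 of them are the loci LOC_Os04g58200, LOC_Os10g41760 and LOC_Os10g25040 already given for chlorophyll synthesis and breakdown. Because the IDs came from annotation of genes already selected for change in these libraries, the count is no independent evidence of a direction. The list includes 3 early light-induced proteins, relatives of the light-harvesting proteins that bind free chlorophyll under stress. LOC_Os01g14410 had FPKM 24.5 in control and 158 at day 2, LOC_Os07g08150 had 2.60 and 89.8, and LOC_Os07g08160 had 0.810 and 40.1. Their sum was 27.9 in control and 288 at day 2, a 10.3-fold difference. Singly, LOC_Os01g14410 differed 6.45-fold, LOC_Os07g08150 34.6-fold and LOC_Os07g08160 49.5-fold. The sum of the listed light-harvesting loci differed 5.38-fold. Both sums hold only loci selected for change, so the classes cannot be compared by them. The list also includes a chlorophyll a/b binding protein outside the 39 loci, LOC_Os04g59440, with FPKM 4.24 in control and 23.7 at day 2, and a ferredoxin-NADP reductase, LOC_Os07g05400, the enzyme type that passes electrons between ferredoxin and NADP, with FPKM 5.42 and 75.4.

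**Figure D4:**
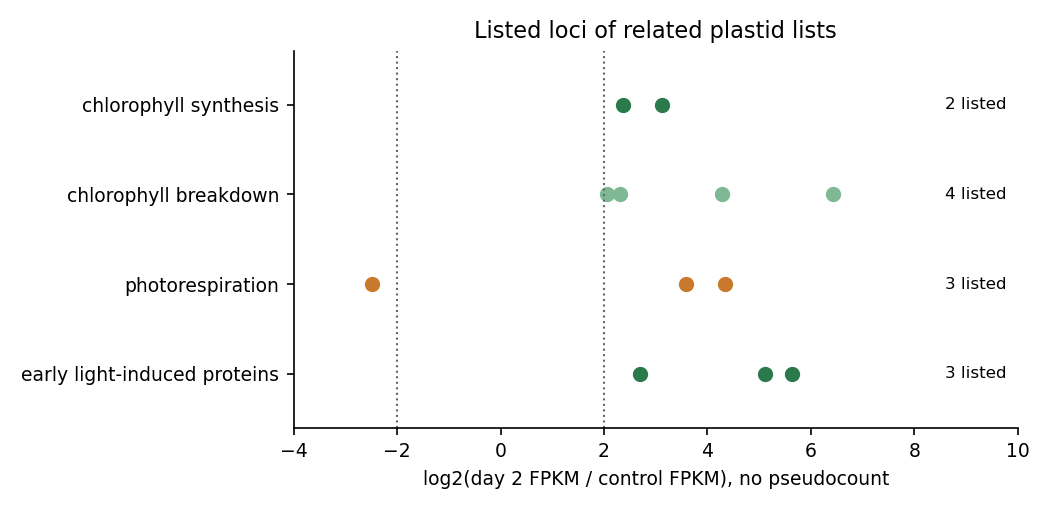
log2 ratio of day 2 to control for the listed loci of chlorophyll synthesis, chlorophyll breakdown, photorespiration and early light-induced proteins, 1 point per locus and dotted lines at -2 and 2. All points lie right of 2 except the photorespiration locus annotated as glycine dehydrogenase, at -2.49, and the point farthest to the right is the stay-green locus at 6.43.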

How the data were processed

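Illumina read pairs were quality-filtered by the authors with NGS QC Toolkit and aligned by TopHat against IRGSP-1.0 (Nipponbare). The methods then name Cufflinks and Cuffmerge for assembly and Cuffdiff for the comparison. The deposited values are FPKM, 1 per transcript and group over 2 libraries, and the scaling option is not given in the sources used here. The library kit does not mark strand, so overlapping antisense transcripts cannot be told apart.

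The tables were joined by transcript. Locus IDs were stripped of trailing spaces (2 of the 10 rows) and matched to the 39 loci. FPKM was summed per locus. Log2 ratios had no pseudocount. A call needed FPKM 1 in at least 1 group and a log2 ratio of 2 in either direction. Chromosome numbers follow the locus IDs on each sequence, and coordinates are the files' own. RefSeq names (assembly ASM3414082v1) were found for 7 of the 9 listed loci through gene IDs in the study's table. Every listed locus of the set is named. The loci and lists were chosen with earlier results of these data known. With 1 value per group no test was run, so the planned limma test was dropped. The alternatives were pseudocounts of 0.1 and 1, other FPKM filters, single transcripts, scaling by the ratio of summed FPKM and sums without 1 locus. The procedure was tested on simulated data. Python 3.11.15 with pandas 2.3.3 was used.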

Additional observations from a re-analysis of the deposited data

How the results depend on the processing

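No paired analysis was possible because the values of both libraries of a group are merged in 1 column, and leaving out a replicate was not possible either. The Calvin cycle class and the photosystem class without its most abundant locus gave no value, since they hold no further listed locus. Pseudocounts of 0.1 and 1 and the 3 other FPKM filters left the 8 higher and 1 lower locus and moved the median log2 ratio by less than 0.1. With each transcript counted singly the median was 2.68. With day 2 divided by the ratio of sums, 3 loci were higher, the median was 1.67, and the log2 ratios of the class sums were 2.12 for Rubisco small subunits, 1.53 for light-harvesting proteins and 2.02 for the photosystem class, against 3.01, 2.43 and 2.92 as deposited. With day 2 multiplied by it, 0 loci were lower, the median was 3.46, and the class values were 3.91, 3.32 and 3.82. All these shifts follow from the construction of the scaling. Without the locus of the highest FPKM, the class value was 0.36 for Rubisco small subunits and 2.56 for light-harvesting proteins. Without LOC_Os12g17600 it was 4.35 for Rubisco small subunits, an alternative chosen after the data had been seen, as were the alternatives for single loci. Of 36 alternative log2 ratios of single loci, 22 moved by more than 0.1. None could change sign, because neither a pseudocount nor a factor under 4-fold can turn a 4-fold difference round. Without fragment numbers no counting error can be given, which matters most at low FPKM.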

Other observations

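Other loci of the list of 13 chloroplast or light related loci were also higher at day 2. The study annotates them among genes it had chosen on these libraries, and not every annotation names the plastid. Of the carotenoid loci, phytoene synthase (LOC_Os09g38320), which starts carotenoid synthesis, had FPKM 5.20 in control and 26.3 at day 2, a log2 ratio of 2.34. Lycopene epsilon cyclase (LOC_Os01g39960), which leads to alpha-carotene and lutein, had FPKM 1.52 in control and 8.50 at day 2, a log2 ratio of 2.48. The thylakoid-bound ascorbate peroxidase locus LOC_Os02g34810, of an enzyme that removes hydrogen peroxide at the photosystems, had FPKM 1.40 in control and 13.7 at day 2, a log2 ratio of 3.29. With day 2 divided by the ratio of sums, the first 2 of these were at 1.44 and 1.59 and the peroxidase at 2.39. A locus annotated as transketolase, LOC_Os07g09190, had FPKM 0.523 in control and 6.57 at day 2, a log2 ratio of 3.65. The locus annotated as glyceraldehyde-3-phosphate dehydrogenase, LOC_Os02g07490, had FPKM 4.43 and 94.5 summed over its 2 transcripts, a log2 ratio of 4.41. The study's annotation does not say whether these 2 belong to the Calvin cycle, and none of the 4 Calvin cycle loci of the set was listed.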
